A study of Arabidopsis thaliana with 16 samples.

Results

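Untreated *fer* seedlings were set against WT seedlings given arabidopside A, to show where the lasting state of the mutant matched the 2 h state of the treated WT and where it differed. The comparison used 8 of the 16 libraries of the series, chosen by their labels: 4 of *fer* control and 4 of WT with arabidopside, called WT arabidopside here. Each group held 4 biological replicates of whole seedlings, 10 days old. All groups were grown on 1/2MS plates and moved to liquid 1/2MS medium, where they stood for 2 h to let effects of the transfer pass. *fer* is the *fer-4* allele, a T-DNA insertion line, so the mutant state rests on 1 allele. WT is Col-0, with *FER* intact. WT arabidopside received 12.5 µM arabidopside A for 2 h, and the labels name no solvent for the controls. Untreated WT seedlings, called WT control, gave the baseline. The *fer* arabidopside libraries (the mutant with the same dose and time) and WT control were the 8 libraries outside the main comparison. Genotype and treatment both differed between *fer* control and WT arabidopside and cannot be told apart in that comparison alone.

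FERONIA (FER) is a receptor kinase of the plasma membrane that senses the state of the cell wall and binds RALF peptides. It is known for its part in cell growth, immunity and hormone responses. Arabidopside A is a galactolipid of the chloroplast membrane that carries the jasmonate precursors OPDA and dinor-OPDA, and arabidopsides accumulate in wounded leaves. In jasmonate signaling, jasmonoyl-isoleucine binds the receptor COI1 and the JAZ repressors, the JAZ proteins are degraded, and MYC factors then activate their targets. Those targets include the *JAZ* genes themselves and genes of jasmonate synthesis and turnover. In many plants and conditions the salicylic acid pathway acts against the jasmonate pathway.

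Transcripts were measured by QuantSeq, which samples the 3′ ends of transcripts, so that length does not set a gene's count, and the values are counts per gene. The libraries held from 2843653 to 4966370 counts in *fer* control and from 3731548 to 5212147 in WT arabidopside, against 3928186 to 5985875 in WT control. *FER* (AT3G51550) had 1.37, 1.06, 0.667 and 3.04 CPM (counts scaled to a common library size with TMM factors) in the *fer* control libraries, against 138, 97.6, 128 and 95.3 CPM in WT arabidopside. The log2 fold change was -6.24 (standard error 0.35, adjusted p = 2.12e-06 from edgeR), and no *fer* library came near a WT library. In whole seedlings, fewer cells of a type and less RNA per cell cannot be told apart.

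The *fer* control libraries differed among themselves more than the WT libraries did. The distance between 2 libraries was taken as the root mean square difference of log2(CPM + 1) over the 14269 genes with a mean of at least 5 CPM. It ranged from 0.436 to 0.85 among the 6 pairs of *fer* control libraries, against 0.298 to 0.365 among WT arabidopside libraries. Libraries 1 and 2 of *fer* control lay at 0.556 to 0.686 from the WT arabidopside libraries, and libraries 3 and 4 lay at 0.955 to 1.17. In some gene lists, libraries 3 and 4 of *fer* arabidopside also stood apart from libraries 1 and 2, as given below. The labels give no batch, day or extraction that would set libraries 3 and 4 apart in either group. Results are therefore also given without *fer* control libraries 3 and 4, as an alternative chosen after seeing the data. Each of the 4 *fer* control libraries lay closer to every WT arabidopside library than to any WT control library. For library 1 the distances were 0.556 to 0.635 from WT arabidopside and 0.651 to 0.697 from WT control, and for library 3 they were 1.09 to 1.17 and 1.2 to 1.24. WT arabidopside itself lay at 0.421 to 0.529 from WT control.

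Of 16772 genes tested with edgeR's quasi-likelihood F test (Benjamini-Hochberg adjustment, threshold 0.05), 1988 (11.9%) were higher and 1262 (7.52%) were lower in *fer* control than in WT arabidopside. A log2 fold change of at least 1 was reached by 1357 of the higher and 357 of the lower genes. A second group of genes was bounded from the other side: for 9852 genes (58.7%) the 95% interval of the log2 fold change lay wholly within -1 to 1, that is, within 2-fold. These genes include 451 that also passed the test, with small differences. For 4121 genes the comparison neither passed the test nor bounded the difference within 2-fold. Over all genes tested the log2 fold change had a median of -0.02. Without *fer* control libraries 3 and 4, 1478 genes were higher, 893 were lower, and 11174 of 17451 were within 2-fold. Leaving out any 1 of the WT arabidopside libraries gave 1819 to 2044 calls in place of 3250, and leaving out *fer* control library 4 gave 2003.

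Against the shared baseline, each state had its own changes. In *fer* control 2661 genes (15.7%) were higher and 1959 (11.5%) lower than in WT control, out of 17001 tested, and with upper-quartile scaling the counts were 2335 and 2465. In WT arabidopside 861 genes (5.13%) were higher and 345 (2.06%) lower than in WT control, out of 16775 tested. A fit with all 16 libraries gave 333 higher and 24 lower, and a fit without *fer* arabidopside (12 libraries) gave 369 and 37. Both the higher and the lower calls in WT arabidopside thus depend on the libraries fitted, the lower calls the most. These comparisons share the WT control libraries with each other, and each shares a group with the main comparison, so their values are set side by side and no overlap between them is read as a result. At any level of expression, 264 genes were called higher than WT control in both states and lay within 2-fold of each other. A further 67 were called lower in both and lay within 2-fold. The rule used for naming also asks for at least 20 CPM, in either state for higher genes and in WT control for lower ones. That left 209 higher and 46 lower genes. The 264 and the 209 rest on the higher calls in WT arabidopside, and the 67 and the 46 on the lower calls.

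The share of promoters with a known motif differed between groups of genes, and 5 promoters are shown because they carry the G-box, the GCC-box or the W-box. The motif is in capitals, and each stretch is the 250 bases before the annotated gene start in RefSeq (TAIR10.1), written 5′ to 3′ on the strand of the gene. *AOS* (allene oxide synthase, a jasmonate synthesis enzyme) and *DIR5* (a dirigent protein) stood at like levels in both states. *PDF1.2* (a plant defensin), *WRKY62* (a WRKY factor) and *PAL1* (phenylalanine ammonia-lyase) were higher in *fer* control. The capitals are a G-box in *AOS*, a GCC-box in *DIR5* and *PDF1.2*, and W-boxes in *WRKY62* and *PAL1*. The *AOS* stretch also holds a W-box on the opposite strand (agtcaa), left in small letters.
AOS, chr5:17099596-17099845, minus strand: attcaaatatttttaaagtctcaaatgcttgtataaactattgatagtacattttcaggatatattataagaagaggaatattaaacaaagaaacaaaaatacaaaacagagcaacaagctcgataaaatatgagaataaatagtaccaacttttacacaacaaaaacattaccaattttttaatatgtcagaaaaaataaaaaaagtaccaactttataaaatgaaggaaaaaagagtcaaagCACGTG
DIR5, chr1:23813693-23813942, plus strand: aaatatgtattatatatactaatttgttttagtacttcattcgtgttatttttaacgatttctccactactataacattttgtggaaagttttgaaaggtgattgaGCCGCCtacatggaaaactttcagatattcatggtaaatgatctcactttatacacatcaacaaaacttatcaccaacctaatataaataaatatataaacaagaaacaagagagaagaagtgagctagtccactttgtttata
PDF1.2, chr5:17907639-17907888, minus strand: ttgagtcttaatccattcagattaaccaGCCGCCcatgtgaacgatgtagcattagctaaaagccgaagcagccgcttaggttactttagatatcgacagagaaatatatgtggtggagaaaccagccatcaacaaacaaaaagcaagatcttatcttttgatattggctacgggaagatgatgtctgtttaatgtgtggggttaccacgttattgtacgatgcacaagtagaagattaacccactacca
WRKY62, chr5:352096-352345, minus strand: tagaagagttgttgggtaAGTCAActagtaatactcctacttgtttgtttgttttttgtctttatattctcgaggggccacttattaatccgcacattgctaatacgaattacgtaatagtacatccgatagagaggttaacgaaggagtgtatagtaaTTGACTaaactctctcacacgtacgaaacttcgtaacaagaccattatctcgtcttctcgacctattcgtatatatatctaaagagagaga
PAL1, chr2:15560756-15561005, minus strand: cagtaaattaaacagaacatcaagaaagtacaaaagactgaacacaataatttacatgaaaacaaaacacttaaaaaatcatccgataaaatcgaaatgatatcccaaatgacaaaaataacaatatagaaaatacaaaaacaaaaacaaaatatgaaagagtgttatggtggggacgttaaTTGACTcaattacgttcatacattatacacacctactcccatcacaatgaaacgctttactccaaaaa

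Motifs were counted on both strands in a window from 250 bases before to 50 bases after the annotated start of each gene. The W-box (TTGACC or TTGACT), the element that WRKY factors bind, was found in 948 of the 1988 genes higher in *fer* control (47.7%). It was found in 321 of the 1261 lower genes that had a window (25.5%), against 32.7% of the 16771 genes tested that had a window and 32.4% of 27443 protein-coding genes. The G-box (CACGTG), which MYC and other bHLH factors and bZIP factors bind, showed another pattern. It was found in 47 of the 264 genes that were higher than WT control in both states and within 2-fold of each other (17.8%). Those 264 rest on higher calls in WT arabidopside, which depend on the libraries fitted, as given above. Among genes higher in *fer* control the share was 8.2%, among lower genes 9.2%, among the 9852 genes within 2-fold 9.19%, and among all genes tested 8.82%. Of the 10 genes named below for their shared increase, 0 had a G-box, and of the 10 named for the largest increase in *fer* control, 3 had a W-box. The ABRE core (ACGTG), which lies inside every G-box and was counted with it, was in 45.5% of the 264 genes and in 27.8% of all tested. The GCC-box (GCCGCC), bound by ERF factors, was in 6.82% of the 264 genes, in 2.92% of the higher genes and in 2.77% of all tested. The as-1 core (TGACG), bound by TGA factors, was in 26.6% of the higher genes, 22.8% of the lower genes and 23.9% of all tested. A match is a description of letters in a window and was not tested, and groups chosen by their expression are compared here only by their shares.

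**Figure D1:**
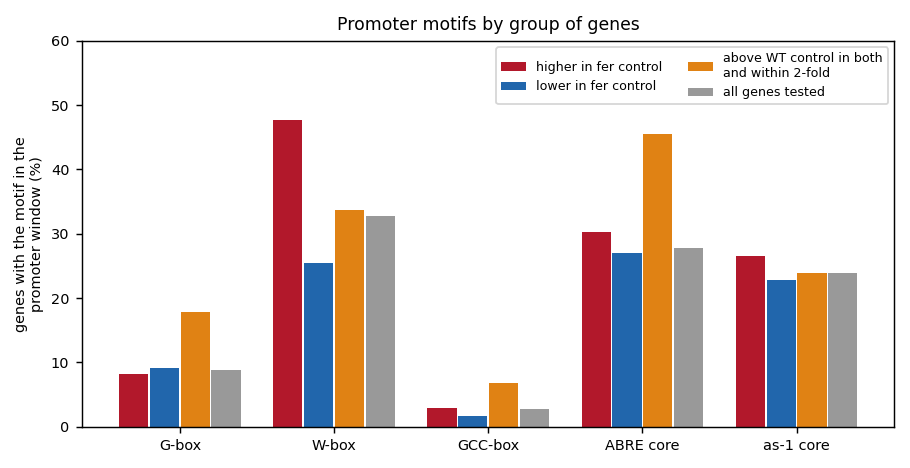
Share of genes (%) with each motif in the promoter window, by group of genes: higher in *fer* control than WT arabidopside, lower in *fer* control, above WT control in both states and within 2-fold of each other, and all genes tested. The W-box bar stands highest for genes higher in *fer* control (47.7%), and the G-box bar for genes above WT control in both states and within 2-fold of each other (17.8%).

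Genes of known pathways were described by 32 lists, each counted over the members that passed the filter on low counts. List counts against WT control stand beside unlike shares of all genes. These are 15.7% higher and 11.5% lower in *fer* control, and 5.13% higher and 2.06% lower in WT arabidopside. A member that passed through only 1 of the groups had to differ between them, so the counts and medians describe the lists and give no support of their own. The plot of log2 fold changes by list shows that salicylic acid genes had the highest median and xyloglucan endotransglucosylases the lowest, while the medians of *JAZ* genes, jasmonate bHLH factors and ER body genes lay near that of all genes (-0.02).

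**Figure D2:**
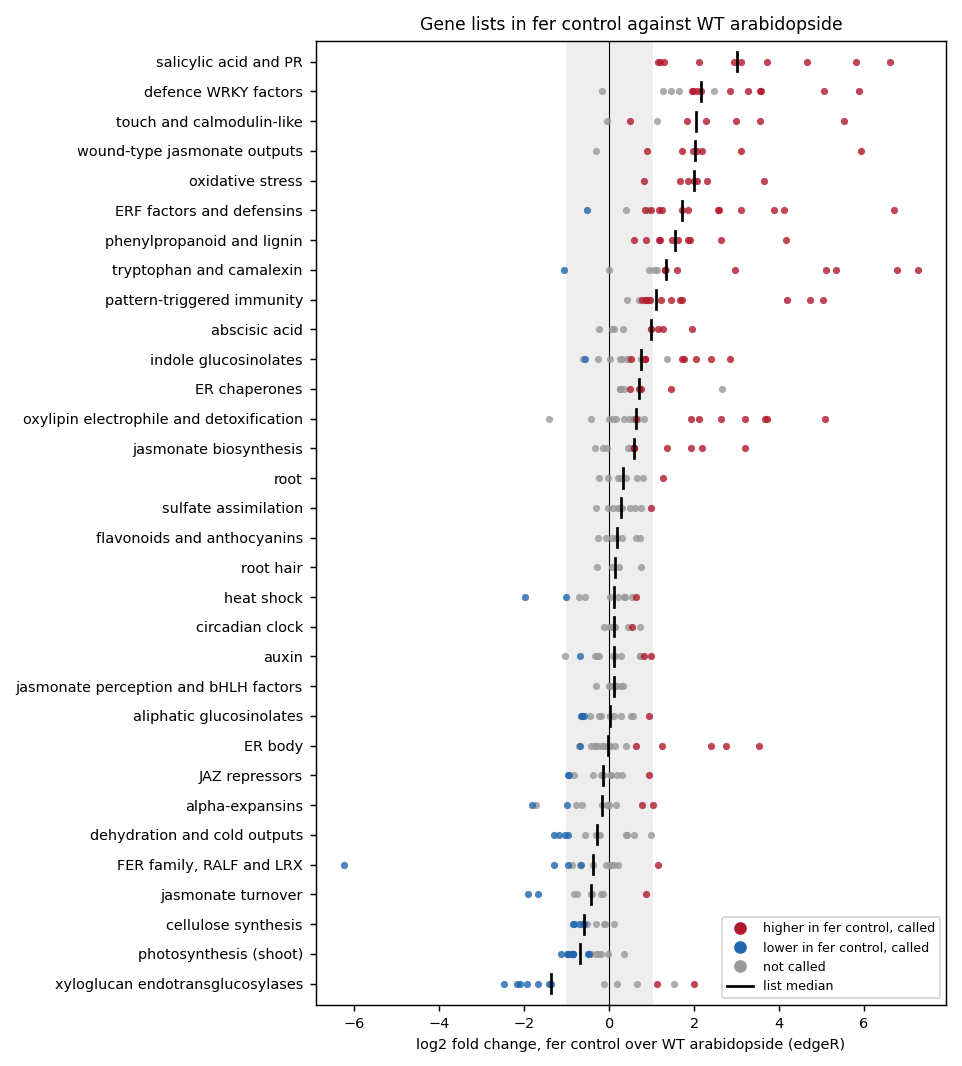
Log2 fold change of *fer* control over WT arabidopside (x axis) for each tested member of 32 gene lists (rows), with genes called higher in red, genes called lower in blue, other genes in gray and the list median as a black bar. The gray band marks -1 to 1. Medians run from 3.01 for salicylic acid and PR genes to -1.36 for xyloglucan endotransglucosylases.

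The first question was where the mutant state matched the treated state. The 10 genes with the largest shared increase over WT control were *CLH1* (chlorophyllase), *AT3G23550*, *DIR5*, *JRG21* (a jasmonate-induced oxygenase, also called JOX3), *AACT1* (an acyltransferase), *JAZ6*, *PGIP2* (a polygalacturonase inhibitor), *JAZ1*, *AT1G15125* and *AT2G34810*. Of these, only *AT3G23550* was called between *fer* control and WT arabidopside. *CLH1* had 243, 174, 149 and 125 CPM in *fer* control and 191, 213, 234 and 219 CPM in WT arabidopside, against 14.1, 16.2, 8.47 and 15.4 CPM in WT control. *JAZ6* had 82.2, 74.8, 80.3 and 60.5 CPM in *fer* control and 74.2, 67.1, 85.4 and 62.6 CPM in WT arabidopside, against 12, 14.2, 8.79 and 13.6 CPM in WT control. For each of the 10 genes, every library of both groups was above every WT control library. The genes were chosen as higher than WT control in both states and within 2-fold of each other. Their distance from WT control and their small differences between the states follow from that choice and give no support of their own. The 95% interval of the difference was -0.69 to 0.09 for *CLH1* and -0.27 to 0.36 for *JAZ6* on the log2 scale.

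The *fer* control libraries did not all hold the same place within this match. *DIR5* had 33.1, 23.62, 76.3 and 70.5 CPM in *fer* control, so that libraries 3 and 4 were above libraries 1 and 2, and 61.4, 45.3, 43.8 and 67.2 CPM in WT arabidopside. *AT2G34810* ran the other way, with 144, 179, 86.1 and 66.8 CPM in *fer* control and 84.2, 84.4, 120.4 and 95 CPM in WT arabidopside. Without *fer* control libraries 3 and 4, *DIR5* was called lower (-0.91, adjusted p = 0.00271 from edgeR) and *AT2G34810* higher (0.74, adjusted p = 0.000753). *AT3G23550* passed the test in the full comparison at 0.59 (adjusted p = 0.021 from edgeR) with an interval that stayed within 2-fold, and a gene on the opposite strand overlaps it over 69 bp. It did not pass without WT arabidopside library 1, 2 or 3 (adjusted p = 0.0602, 0.073 and 0.0589) or *fer* control library 4 (0.062), nor without *fer* control libraries 3 and 4 together (0.0589). Among the genes that were not called, *AACT1* passed without *fer* control library 1 or 2 (adjusted p = 0.0321 and 0.032), *JAZ1* and *CLH1* without library 1 (0.041 and 0.0233), and *JRG21* without library 3 (0.0498).

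**Figure D3:**
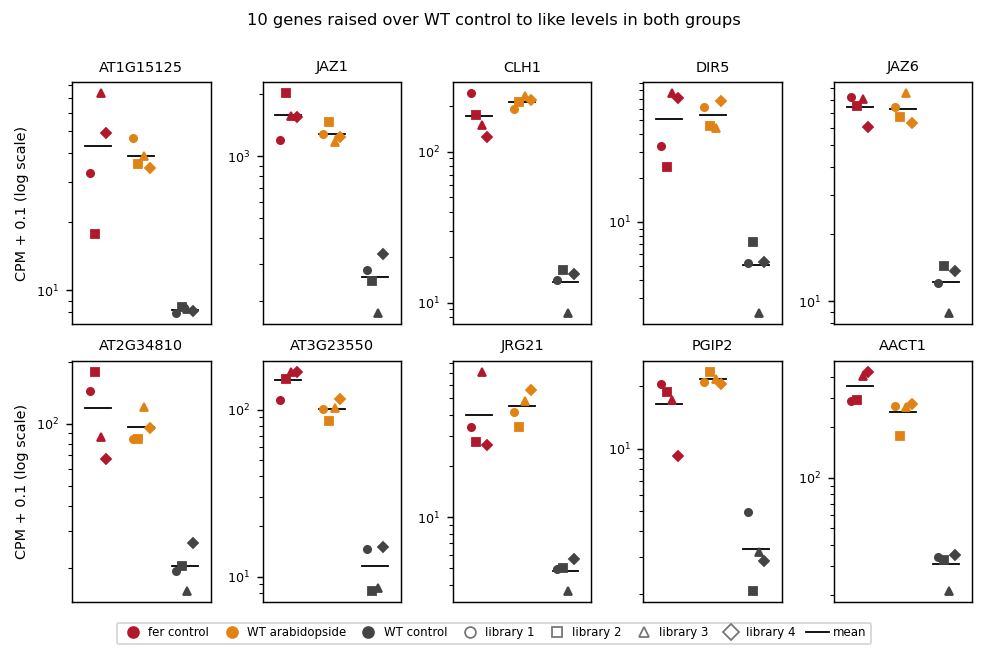
CPM + 0.1 (log scale) in each library of *fer* control, WT arabidopside and WT control for the 10 genes with the largest shared increase over WT control, with marker shapes for library numbers and bars for means. *JAZ6* averaged 74.4 ± 9.83 CPM in *fer* control and 72.3 ± 9.92 CPM in WT arabidopside, against 12.2 ± 2.43 CPM in WT control.

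Among the *JAZ* repressor genes, 12 of 13 were tested, 8 lay within 2-fold, 1 was called higher and 2 lower in *fer* control, with a median log2 fold change of -0.15. These shares are near those of all genes tested, of which 58.7% lay within 2-fold, 11.9% were higher and 7.52% lower. Without WT arabidopside library 4, 5 lay within 2-fold, without library 2 or 3 the count lower was 1 or 0, and without *fer* control library 1 the count higher was 2. Against WT control, 10 of 11 were higher in *fer* control (median 2.61) and 11 of 12 in WT arabidopside (median 2.73). *JAZ1*, a founding member of the family, had 1190, 2008, 1564 and 1537 CPM in *fer* control and 1276, 1457, 1164 and 1230 CPM in WT arabidopside, against 282, 248, 175 and 336 CPM in WT control. *MYC2*, the bHLH factor that JAZ proteins bind, stood at 128 ± 25.2 CPM in *fer* control and 128 ± 6.99 CPM in WT arabidopside, against 34.1 ± 4.09 CPM in WT control (SD, n = 4 each), and its difference of 0.01 had an interval of -0.31 to 0.33. A gene on the opposite strand overlaps *MYC2* over 3241 bp in the annotation, and reads of the pair could not be assigned without strand. Shorter overlaps on the opposite strand are annotated for *JAZ10* (71 bp), *PYK10* (138 bp), *FRK1* (175 bp), *MPK3* (192 bp), *CESA1* (28 bp), *CESA3* (74 bp), *RCA* (3 bp) and *CYP71A13* (572 bp), all named further on. *AT1G15125* overlaps *AT1G15120* on the same strand over 183 bp, so reads from the shared stretch cannot be told apart even with strand. For all 8 genes of jasmonate perception and its bHLH factors the difference lay within 2-fold, and none was called by edgeR.

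The *JAZ* genes that did differ went in both directions. *JAZ5* had 59.2, 51.5, 83.4 and 71.7 CPM in *fer* control, above all of the 33.5, 30.5, 36.2 and 39.1 CPM in WT arabidopside (0.95, standard error 0.17, adjusted p = 0.00386 from edgeR). *JAZ9* (TIFY7 in RefSeq) and *JAZ10* were lower in *fer* control than in WT arabidopside, although both were higher in *fer* control than in WT control. *JAZ10*, which encodes splice forms that resist degradation, had 31.4, 22.6, 46 and 24 CPM in *fer* control and 55.2, 49.9, 69.1 and 66.9 CPM in WT arabidopside, against 5.54, 4.92, 4.23 and 4.28 CPM in WT control. The difference from WT arabidopside was -0.94 (adjusted p = 0.0132) for *JAZ10* and -0.97 (adjusted p = 0.0206) for *JAZ9* in edgeR. Without WT arabidopside library 3 the adjusted p was 0.0511 for *JAZ10* and 0.0652 for *JAZ9*, and without library 2 it was 0.0501 for *JAZ9*.

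Jasmonate synthesis matched at some steps and not at others. Of 15 genes 14 were tested, 7 were higher in *fer* control, none was lower and 6 lay within 2-fold, against 11.9%, 7.52% and 58.7% of all genes (median 0.58). *AOS*, whose product commits the 13-hydroperoxide of linolenic acid to the pathway, had 800.5, 756, 470.5 and 438 CPM in *fer* control and 613, 614, 758 and 762 CPM in WT arabidopside, against 240.3, 222, 193 and 305 CPM in WT control. The groups overlapped, and the interval of the difference was -0.58 to 0.28. The lipoxygenase genes that feed AOS were higher in *fer* control. *LOX3* had 54.5, 42.3, 64.9 and 45.6 CPM in *fer* control and 14.8, 12.1, 11.8 and 6.96 CPM in WT arabidopside, against 6.93, 8.85, 4.4 and 9.48 CPM in WT control. Its difference from WT arabidopside was 2.18 (standard error 0.22, adjusted p = 0.000154 from edgeR). *LOX4* differed by 3.19 (adjusted p = 0.000855), *LOX2* by 1.36 (adjusted p = 0.00594) and *OPR3*, the OPDA reductase, by 0.59 (adjusted p = 0.012 from edgeR). *AOC3*, an allene oxide cyclase, had 271, 273, 229.9 and 239 CPM in *fer* control, against 80.0, 45, 74.2 and 68.8 CPM in WT arabidopside (1.92, adjusted p = 5.07e-05). The *AOC* genes are close relatives, so reads may be split among them.

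Of 11 genes of jasmonate turnover 9 were tested, with 1 higher in *fer* control, 2 lower and 3 within 2-fold (median -0.43), against 11.9%, 7.52% and 58.7% of all genes tested. Without *fer* control library 3, 5 were lower (median -0.74), and without *fer* control library 4 or any 1 WT arabidopside library none was higher. Against WT control, 5 of 9 were higher and 1 was lower in *fer* control, and 8 of 9 were higher in WT arabidopside. *ST2A*, which encodes a sulfotransferase for hydroxyjasmonate, had 510.0, 278, 349.8 and 274 CPM in *fer* control and 1351, 969.9, 1414 and 832 CPM in WT arabidopside, against 705, 971, 719 and 758 CPM in WT control. The *fer* control libraries were below both WT groups (-1.68 against WT arabidopside, adjusted p = 0.00144, and -1.17 against WT control, adjusted p = 0.0018, edgeR). Without *fer* control libraries 3 and 4 the first value was -1.53 and did not pass (adjusted p = 0.0698). *AT2G38240* had 21.8, 14.8, 46.2 and 18.8 CPM in *fer* control and 81.9, 76.6, 116 and 116 CPM in WT arabidopside, against 32.1, 43.2, 24.3 and 42.4 CPM in WT control. It was thus higher in WT arabidopside than in WT control (1.46) and was not called in *fer* control against WT control (-0.47, adjusted p = 0.355 from edgeR).

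ER bodies are compartments of the endoplasmic reticulum in Brassicales that store β-glucosidases, and NAI1 is the bHLH factor needed to form them. Of 19 tested ER body genes, 12 lay within 2-fold, near the 58.7% of all genes tested. In *fer* control 5 were higher (11.9% of all genes) and 1 was lower (7.52% of all genes), with a median of -0.02. Against WT control, 14 were higher in *fer* control (15.7% of all genes) and 18 in WT arabidopside (5.13% of all genes). *PYK10*, the main β-glucosidase of ER bodies, stood at 2240 ± 353 CPM in *fer* control and 2277 ± 237 CPM in WT arabidopside, against 1772 ± 127 CPM in WT control (SD, n = 4 each). Its interval was -0.31 to 0.28 for *fer* control against WT arabidopside. *NAI1* itself was the member called lower, with 51.4, 52.9, 48.7 and 30.1 CPM in *fer* control and 69, 71.7, 64.1 and 92.6 CPM in WT arabidopside, against 31, 29.2, 24.8 and 27.7 CPM in WT control (-0.69, adjusted p = 0.0237 from edgeR). Without WT arabidopside library 1, 2 or 4 the adjusted p of *NAI1* was 0.0504, 0.0621 and 0.0801, and without *fer* control library 4 it was 0.0526. *BGLU18*, the β-glucosidase of wound-induced ER bodies, had 1812, 1241, 561 and 944 CPM in *fer* control and 174, 135, 218 and 151 CPM in WT arabidopside, against 79, 78.2, 70.8 and 79 CPM in WT control. The *fer* control libraries were all higher (2.75, adjusted p = 0.00129 from edgeR), with libraries 1 and 2 the highest. *JAL23*, a jacalin-related lectin gene, differed by 3.54 (adjusted p = 0.000391 from edgeR).

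Aliphatic glucosinolate genes and sulfate assimilation, which supplies glucosinolate sulfur, were compared in the same way. Of all genes tested, 58.7% lay within 2-fold, 11.9% were higher and 7.52% were lower. Of the aliphatic genes 10 of the 13 tested of 14 lay within 2-fold, with 1 higher and 3 lower (median 0.01). Without *fer* control library 1 or WT arabidopside library 1, 6 lay within 2-fold, and without *fer* control library 1 or 2 the count higher was 2. Of the sulfate genes 7 of the 10 tested of 11 lay within 2-fold, with 1 higher (median 0.27). The count higher was 5 without *fer* control library 2, 2 without library 1, and 0 without library 4 or WT arabidopside library 1, 2 or 3. Against WT control, 6 aliphatic genes were higher in *fer* control and 10 in WT arabidopside. Of the sulfate genes, 8 were higher in *fer* control and 7 in WT arabidopside. Of 12 circadian clock genes 8 were tested and 7 lay within 2-fold, with 1 higher (2 without *fer* control library 2, and 0 without any 1 of the other libraries except WT arabidopside library 3).

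The second question was where the mutant state exceeded the treated state. The 10 genes with the largest increase had 2 to 40 counts in all 4 WT arabidopside libraries together, so their ratios depend on few counts. *AT3G28510* had 490 counts in the 4 *fer* control libraries and 2 in WT arabidopside, a ratio of 278 with a 95% counting interval of 76.4 to 2300 that covers counting error only. *AOX1D*, an alternative oxidase gene, had 423 counts in *fer* control and 3 in WT arabidopside (ratio 160, interval 54.3 to 778). *SAG13*, a senescence-associated gene, had 394 counts in *fer* control and 3 in WT arabidopside (ratio 149, interval 50.5 to 725), and *AT1G29020* had 329 in *fer* control and 3 in WT arabidopside (ratio 124, interval 42.1 to 605). Their fitted log2 fold changes depend on the prior count and moved with single libraries. *AT3G28510* stood at 6.66 without *fer* control library 3 in place of 7.75, *SAG13* at 5.98 without *fer* control library 3 and 7.94 without WT arabidopside library 2 in place of 6.94, and *AT1G29020* at 7.61 without WT arabidopside library 1 in place of 6.77. The *fer* control libraries spread widely for several of these genes. *AOX1D* had 2.55, 3.88, 73.8 and 20.4 CPM in *fer* control, and it did not pass edgeR's threshold without any 1 WT arabidopside library (adjusted p from 0.0611 without library 1 to 0.0691 without library 3) or without *fer* control library 4 (0.056).

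*ARD3* (acireductone dioxygenase), *CYP71A13* and *CYP71A12* (enzymes that convert indole-3-acetaldoxime for camalexin and related products), *PDF1.3* (a defensin), *PBS3* (which conjugates isochorismate to glutamate in salicylic acid synthesis) and *WRKY62* were the other 6. *PDF1.3* and *WRKY62* were high in each *fer* control library. *PDF1.3* had 152, 76.5, 111 and 135 CPM in *fer* control, against 1.35, 0.809, 1.74 and 0.268 CPM in WT arabidopside (6.71, standard error 0.42, adjusted p = 4.84e-06 from edgeR). *WRKY62* had 59.6, 23.62, 63.6 and 54.7 CPM in *fer* control, against 0.769, 0.539, 0.581 and 0 CPM in WT arabidopside (6.59, adjusted p = 3.24e-05). The camalexin genes were highest in libraries 3 and 4. *CYP71A12* had 20.4, 23.3, 569 and 369 CPM in *fer* control, against 1.92, 1.62, 3.29 and 1.87 CPM in WT arabidopside (6.79, standard error 1.42, adjusted p = 0.0156 from edgeR). Without *fer* control libraries 3 and 4 the log2 fold change was 3.27 for *CYP71A12* and 3.88 for *CYP71A13*, against 7.26 for *CYP71A13* in the full comparison. Without library 3 alone *CYP71A12* stood at 5.97 (adjusted p = 0.0564), *CYP71A13* at 6.56 (0.0513), *ARD3* at 7.19 in place of 7.80, and *PBS3* at 6.01 in place of 6.60, while *PBS3* stood at 8.08 without WT arabidopside library 1. In limma-voom neither *CYP71A12* nor *CYP71A13* passed (adjusted p = 0.204 and 0.286). *CYP71A12* and *CYP71A13* are close relatives, as are *PDF1.3* and *PDF1.2*, and reads may be split between them.

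**Figure D4:**
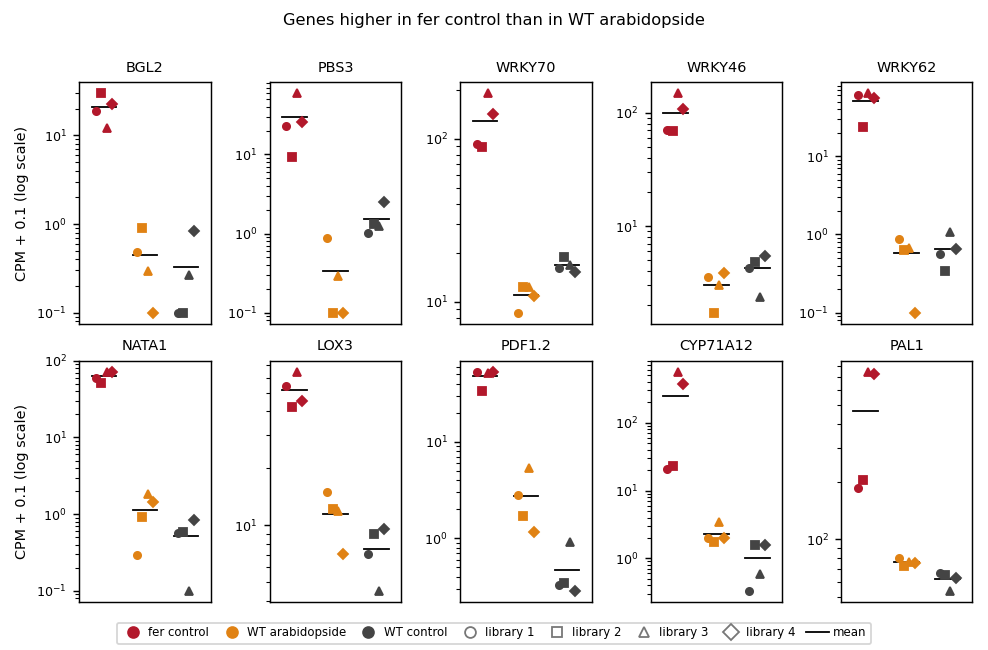
CPM + 0.1 (log scale) in each library of *fer* control, WT arabidopside and WT control for 10 genes higher in *fer* control than in WT arabidopside, with marker shapes for library numbers and bars for means. *WRKY46* sat between 68.4 and 148 CPM in *fer* control, above the WT arabidopside values of 1.62 to 3.75, and *CYP71A12* and *PAL1* were highest in *fer* control libraries 3 and 4.

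Salicylic acid genes had the highest median of the 32 lists. Of 13 salicylic acid and PR genes 10 passed the filter, 10 were higher in *fer* control than in WT arabidopside, none lay within 2-fold, and the median was 3.01. Of all genes tested, 11.9% were higher and 58.7% lay within 2-fold. The 10 also passed without *fer* control libraries 3 and 4, with a median of 2.25. Against WT control, 9 of 10 were higher in *fer* control, and in WT arabidopside 1 was higher and 1 lower of 7 tested. With only 7 tested between the WT groups, some of the 10 passed the filter through *fer* control. Their count and median partly follow from that. *ICS1* (EDS16 in RefSeq), the isochorismate synthase that makes most of the salicylic acid of defense, had 55.7, 56.4, 53.4 and 123 CPM in *fer* control and 18.3, 15.9, 18 and 14.2 CPM in WT arabidopside, against 15.2, 13, 13 and 18.4 CPM in WT control. Its WT values overlapped, and its *fer* control values were above them (2.12, standard error 0.28, adjusted p = 0.00112 from edgeR). *PAD4*, which acts with EDS1, had 9.41, 20.1, 23.4 and 13.4 CPM in *fer* control and 2.31, 2.16, 1.35 and 2.94 CPM in WT arabidopside, against 3.7, 3.69, 3.42 and 3.72 CPM in WT control (2.93, adjusted p = 0.000425). *PR2* (BGL2 in RefSeq), a β-1,3-glucanase and marker of the salicylic acid response, had 18.8, 29.6, 12 and 22.5 CPM in *fer* control, against 0.385, 0.809, 0.194 and 0 CPM in WT arabidopside (5.81, adjusted p = 3.61e-05, and 6.43 without WT arabidopside library 2). *CBP60G*, a factor that activates *ICS1*, differed by 4.66 (adjusted p = 0.00816 from edgeR and 0.0701 from limma-voom), and by 2.90 without *fer* control libraries 3 and 4.

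For *EDS1* and *WRKY70*, WT arabidopside lay below WT control. As a class, such lower calls fell from 345 to 24 in the fit with all 16 libraries. *EDS1*, a lipase-like regulator of immunity, had 18.6, 23.62, 20.5 and 27 CPM in *fer* control and 11.2, 7.82, 8.9 and 8.56 CPM in WT arabidopside, against 12.9, 22.4, 16.4 and 14.3 CPM in WT control. It was lower in WT arabidopside than in WT control (-0.84, adjusted p = 0.00227) and was not called in *fer* control against WT control (0.43, adjusted p = 0.147 from edgeR). *WRKY70*, a factor that promotes salicylic acid responses and restrains jasmonate responses, had 93, 89.6, 190.1 and 142 CPM in *fer* control and 8.46, 12.1, 12.2 and 10.7 CPM in WT arabidopside, against 15.9, 18.7, 16.8 and 15.1 CPM in WT control. The 3 groups did not overlap, with WT arabidopside below WT control (-0.62, adjusted p = 0.017) and *fer* control above it (2.95, adjusted p = 2.63e-05 from edgeR).

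Of 17 defense WRKY genes 15 were tested, 10 were higher in *fer* control than in WT arabidopside, none was lower and 1 lay within 2-fold, against 11.9%, 7.52% and 58.7% of all genes (median 2.17, and 1.40 with 10 called without libraries 3 and 4). *WRKY46* had 70.8, 68.4, 148 and 108 CPM in *fer* control, against 3.46, 1.62, 2.9 and 3.75 CPM in WT arabidopside (5.06, standard error 0.34, adjusted p = 1.6e-05 from edgeR). *WRKY33*, which activates camalexin genes, had 83.8, 73.3, 294 and 292 CPM in *fer* control, against 28.5, 24.8, 25.9 and 25.4 CPM in WT arabidopside (2.84, and 1.59 without *fer* control libraries 3 and 4), and annotated genes on the opposite strand overlap it over 272 bp and 26 bp. *WRKY18* was the member within 2-fold, at 106 ± 16.4 CPM in *fer* control and 119.9 ± 14.1 CPM in WT arabidopside, against 76.2 ± 7.5 CPM in WT control (SD, n = 4 each). The W-box counted above is the element these factors bind.

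Genes of pattern-triggered immunity, the response to microbial molecules at the cell surface, were higher for 11 of the 14 tested of 15 (median 1.09), against 11.9% of all genes, and none was lower. *CERK1*, the chitin receptor kinase, had 34.7, 52.9, 102 and 92.7 CPM in *fer* control and 22.3, 21.6, 22.3 and 23 CPM in WT arabidopside, against 22.9, 24.3, 22.5 and 21.4 CPM in WT control (1.68, adjusted p = 0.00663 from edgeR). *RBOHD*, the oxidase of the defense burst, differed by 1.72 (adjusted p = 0.0124) and *MPK3*, a mitogen-activated kinase, by 0.87 (adjusted p = 0.00135), with all *fer* control libraries above WT arabidopside for both. *FRK1*, a marker of this response, had 12.9, 18, 81.8 and 118 CPM in *fer* control, against 1.54, 2.43, 2.13 and 0.803 CPM in WT arabidopside (5.04, adjusted p = 0.0101 from edgeR and 0.105 from limma-voom, and 4.45 without *fer* control library 4). The list count fell to 8 without *fer* control libraries 3 and 4, and to 6 or 7 without *fer* control library 3 or 4 or without WT arabidopside library 1, 2 or 4.

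Of 8 oxidative stress genes 7 were tested and 7 were higher in *fer* control, against 11.9% of all genes (median 1.99), and 7 also passed without libraries 3 and 4, while 3 passed without WT arabidopside library 2 and 4 without library 3. *ZAT10* (STZ in RefSeq), a zinc finger repressor, had 99, 92.4, 284 and 190.2 CPM in *fer* control and 31.9, 35.6, 33.7 and 35.9 CPM in WT arabidopside, against 8.09, 9.09, 7.49 and 10.8 CPM in WT control (2.29, adjusted p = 0.00381 from edgeR). Of 8 touch and calmodulin-like genes, 6 were higher in *fer* control, against 11.9% of all genes (median 2.05), and 3 passed without WT arabidopside library 2 or 3. Only 6 of the 8 passed the filter in WT arabidopside against WT control. *TCH3* (CML12), a calmodulin-like touch gene, had 988, 711, 1968 and 1796 CPM in *fer* control and 332, 236, 295 and 279 CPM in WT arabidopside, against 200.1, 236, 258 and 205 CPM in WT control (2.27, adjusted p = 0.00225), and genes on the opposite strand overlap it over 342 bp and 827 bp.

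Jasmonate outputs further down the pathway were higher in *fer* control for most genes tested. Of 10 wound-type outputs 8 were tested, 7 were higher, none was lower and 1 (*CLH1*) lay within 2-fold, against 11.9%, 7.52% and 58.7% of all genes (median 2.01). The count was 7 without *fer* control libraries 3 and 4, with a median of 2.27. Against WT control, 8 of 8 tested were higher in *fer* control, and 6 of 6 tested were higher in WT arabidopside. *VSP2*, a vegetative storage protein gene, had 354, 286, 143 and 171 CPM in *fer* control and 46.7, 53.6, 58.1 and 52.2 CPM in WT arabidopside, against 12.7, 13.5, 5.7 and 7.99 CPM in WT control. The 3 groups did not overlap, and libraries 1 and 2 were the highest of *fer* control (2.18, standard error 0.26, adjusted p = 0.000819 from edgeR). *NATA1*, an acetyltransferase for ornithine, had 58.6, 50.8, 72.3 and 72 CPM in *fer* control, against 0.192, 0.809, 1.74 and 1.34 CPM in WT arabidopside and 0.462, 0.491, 0 and 0.744 CPM in WT control (5.94, adjusted p = 4.84e-06). *TAT3*, a tyrosine aminotransferase, had 92.6, 98.4, 158 and 110.3 CPM in *fer* control and 41.1, 18.9, 25.4 and 32.6 CPM in WT arabidopside, against 2.77, 1.23, 1.47 and 1.3 CPM in WT control (1.97, adjusted p = 0.000855). *TPS04*, a terpene synthase for a volatile homoterpene precursor, differed by 3.09 (adjusted p = 0.00104 from edgeR).

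On the ERF branch, where jasmonate and ethylene act together, most factors and outputs were higher in *fer* control, and 1 factor was lower. Of 15 tested ERF and defensin genes, 12 were higher and 1 was lower in *fer* control, against 11.9% and 7.52% of all genes (median 1.72), and the counts were 12 and 1 without libraries 3 and 4. The lower gene was *ORA59*, an ERF factor that activates *PDF1.2*. *ORA59* had 181, 209, 139.6 and 154 CPM in *fer* control and 253, 249, 259 and 227 CPM in WT arabidopside, against 34.2, 48.7, 31.1 and 60.2 CPM in WT control (-0.53, adjusted p = 0.0203 from edgeR). It did not pass without WT arabidopside library 1, 2 or 3 (adjusted p = 0.0591, 0.0631 and 0.0693) or *fer* control library 4 (0.063). *PDF1.2* had 53.4, 33.8, 51.6 and 53.5 CPM in *fer* control and 2.69, 1.62, 5.23 and 1.07 CPM in WT arabidopside, against 0.231, 0.246, 0.814 and 0.186 CPM in WT control (4.11, standard error 0.37, adjusted p = 8.13e-05 from edgeR). *PR4*, another output of this branch, differed by 2.58 (adjusted p = 0.0055), and *ERF2*, a further factor, by 0.85 (adjusted p = 0.00219). The GCC-box printed above for *PDF1.2* is the element that ERF factors bind.

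Several metabolic lists lost calls or most of their median without *fer* control libraries 3 and 4. Those libraries also held the lowest summed photosynthesis level of the group (6942 and 9055 CPM, against 13300 and 10580 CPM in libraries 1 and 2), and its part in these results was not tested. In *fer* arabidopside the photosynthesis sums were 12390, 10430, 7870 and 7339 CPM, so libraries 3 and 4 were again the lowest. Phenylpropanoid and lignin sums there were 1779, 2290, 4250 and 5709 CPM. Not every list split this way, as the *JAZ* sums there were 2680, 2647, 2626 and 2961 CPM. The reason for the split was not tested. Of 19 indole glucosinolate genes, 8 were higher and 1 was lower in *fer* control, against 11.9% and 7.52% of all genes (median 0.75). Without *fer* control libraries 3 and 4 the count was 2 higher and 14 within 2-fold (median 0.19). Without any 1 of *fer* control libraries 3 and 4 or WT arabidopside libraries 1 to 4 the count was 1 or 2 higher. *CYP81F2*, which hydroxylates indole glucosinolates, had 67.7, 26.1, 339 and 202 CPM in *fer* control and 29.6, 16.7, 27.5 and 15 CPM in WT arabidopside, against 9.47, 10.08, 7.82 and 8.92 CPM in WT control. Its groups overlapped, and the value of 2.84 (adjusted p = 0.0386 from edgeR) became 1.10 (adjusted p = 0.214) without libraries 3 and 4, and 2.17 (0.108) without library 3. It also missed the threshold without *fer* control library 4 (0.094) or any 1 WT arabidopside library (0.0752 to 0.097).

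Of 15 tryptophan and camalexin genes 14 were tested, with 8 higher and 1 lower, against 11.9% and 7.52% of all genes (median 1.33). Without libraries 3 and 4 the count was again 8 higher, but the median was 0.41 and 7 lay within 2-fold, against 1 before. Leaving out *fer* control library 3 gave 2 higher, and leaving out *fer* control library 4 or any 1 WT arabidopside library gave 4. *PAD3*, the last enzyme of camalexin synthesis, had 32.2, 35.6, 205 and 118 CPM in *fer* control, against 2.88, 1.08, 3.48 and 1.87 CPM in WT arabidopside (5.33, adjusted p = 0.00526 from edgeR, and 4.68 without library 3).

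Phenylpropanoid and lignin genes were higher for 10 of 10 tested in *fer* control, against 11.9% of all genes (median 1.54). The count was 9 without libraries 3 and 4, at a median of 0.73, and 5 or 6 without *fer* control library 3 or 4 or WT arabidopside library 1, 2 or 3. *PAL1* had 185, 203, 751 and 725 CPM in *fer* control and 79.6, 72.2, 75.9 and 74.9 CPM in WT arabidopside, against 66.3, 65.1, 53.6 and 62.6 CPM in WT control (2.64, standard error 0.49, adjusted p = 0.012, and 1.35 without libraries 3 and 4, edgeR). *CAD5*, a cinnamyl alcohol dehydrogenase, differed by 1.18 (adjusted p = 0.00711 from edgeR).

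Genes of oxylipin electrophile detoxification, glutathione transferases and reductases that OPDA and related compounds induce, were higher for 8 of 19, against 11.9% of all genes (median 0.62). Against WT control, 15 were higher in *fer* control and 11 in WT arabidopside. Without libraries 3 and 4 the list had 5 higher, 5 lower and 11 within 2-fold of WT arabidopside, at a median of 0.06. Leaving out *fer* control library 3 gave 3 higher, and *fer* control library 4 or any 1 WT arabidopside library 1 or 2. ER chaperone genes were higher for 4 of 9, against 11.9% of all genes (median 0.69). The count was 1 without libraries 3 and 4, and 2 without *fer* control library 4 or any 1 WT arabidopside library.

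The third question was where the mutant state lay below the treated state. The 10 genes with the largest decrease were *FER*, *BGLU24* (a β-glucosidase), *GASA1* (a gibberellin-regulated peptide), *AT4G16563*, *AT5G03120*, *XTH4* and *XTH7* (xyloglucan endotransglucosylase/hydrolases), *AT1G62770*, *OCT3* (an organic cation transporter) and *FLA13* (a fasciclin-like arabinogalactan protein). *BGLU24* had 8.24, 5.64, 10.9 and 9.72 CPM in *fer* control and 56.1, 59.3, 46.1 and 89.4 CPM in WT arabidopside, against 3.93, 4.67, 2.6 and 5.39 CPM in WT control. It was higher in WT arabidopside than in WT control (3.91, adjusted p = 4.61e-09), and *fer* control was higher than WT control by less (1.07, adjusted p = 0.019), and the difference between the 2 states was -2.83 (standard error 0.24, adjusted p = 4.96e-05, edgeR). The other 8 were each called lower in *fer* control than in WT control. In WT arabidopside *XTH4*, *XTH7*, *AT4G16563* and *AT5G03120* were called lower than in WT control as well, by -0.39, -0.34, -0.42 and -0.50 on the log2 scale, and the other 4 were not called. As a class, lower calls in WT arabidopside depend on the libraries fitted, as given above. *GASA1* had 153, 126, 111 and 89.6 CPM in *fer* control and 942, 777, 723 and 569.7 CPM in WT arabidopside, against 606, 717, 921 and 803 CPM in WT control (-2.64, adjusted p = 1.36e-05 from edgeR). *FLA13* had 327, 381, 64 and 99.6 CPM in *fer* control, with libraries 3 and 4 the lowest, and 1008, 1113, 941 and 637 CPM in WT arabidopside (-2.09, adjusted p = 0.0408). *FLA13* did not pass without *fer* control library 3 or 4 (adjusted p = 0.0566 and 0.093) or any 1 WT arabidopside library (0.0583 without library 4 to 0.0897 without library 2). *AT5G03120* went to -3.14 without *fer* control library 1, in place of -2.55.

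**Figure D5:**
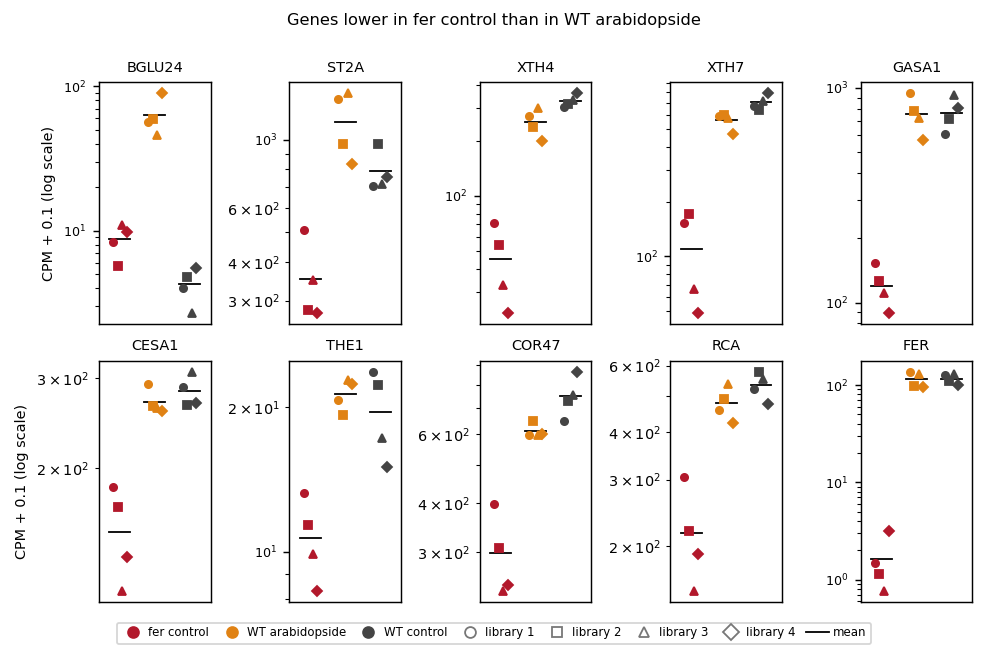
CPM + 0.1 (log scale) in each library of *fer* control, WT arabidopside and WT control for 10 genes lower in *fer* control than in WT arabidopside, with marker shapes for library numbers and bars for means. *XTH4* averaged 45.2 ± 21.5 CPM in *fer* control and 252 ± 44.4 CPM in WT arabidopside, against 329 ± 24.1 CPM in WT control, and *BGLU24* was high in WT arabidopside alone of the 3 groups.

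XTH enzymes cut and rejoin xyloglucan, the polymer that tethers cellulose. Of 15 *XTH* genes in the list 13 were tested, 7 were lower and 2 higher in *fer* control, against 7.52% and 11.9% of all genes (median -1.36). Without libraries 3 and 4 the counts were 7 lower and 1 higher, and the count higher was 4 without *fer* control library 2 and 1 without *fer* control library 3 or 4 or WT arabidopside library 2, 3 or 4. Against WT control, 7 were lower and 3 higher in *fer* control, and 6 lower and 1 higher in WT arabidopside. The limit on lower calls in WT arabidopside holds here too. *XTH4* had 70.8, 54.3, 32.7 and 23.1 CPM in *fer* control and 272, 236, 302 and 199 CPM in WT arabidopside, against 306, 317, 334 and 361 CPM in WT control (-2.47, standard error 0.31, adjusted p = 0.00138 from edgeR). *XTH16* was higher and *XTH19* lower in WT arabidopside than in WT control. *XTH16* had 43.4, 33.5, 16.5 and 20.1 CPM in *fer* control and 124, 108, 113 and 91.8 CPM in WT arabidopside, against 63.1, 48.9, 56.8 and 70.3 CPM in WT control, so that WT arabidopside was above and *fer* control below WT control (-1.93 between the 2 states, adjusted p = 0.00144). *XTH19* had 17.1, 21.9, 17.8 and 14 CPM in *fer* control and 7.5, 8.9, 7.74 and 8.56 CPM in WT arabidopside, against 18.9, 11.6, 12.9 and 18.6 CPM in WT control. It was lower in WT arabidopside than in WT control (-0.94, adjusted p = 0.000857) and was not called in *fer* control against WT control (0.18, adjusted p = 0.585 from edgeR).

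Cellulose synthesis genes were lower for 6 of 11 in *fer* control, against 7.52% of all genes (median -0.60), with 7 within 2-fold. The count was 5 without libraries 3 and 4, and 3 without *fer* control library 4 or WT arabidopside library 1, 2 or 3. *CESA1*, a catalytic subunit of the primary wall complex, had 184, 168, 116 and 134 CPM in *fer* control and 291, 265, 262 and 258 CPM in WT arabidopside, against 288, 265, 308 and 268 CPM in WT control (-0.83, adjusted p = 0.00382 from edgeR). *CESA3* (CEV1 in RefSeq), another subunit of that complex, differed by -0.61 (adjusted p = 0.00709). Against WT control, 7 of the list were lower in *fer* control, and in WT arabidopside 1 was higher and none lower.

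Relatives and ligands of FER were counted as a list. Of 16 genes of the FER family, RALF peptides and LRX proteins 13 were tested, 1 was higher and 4 were lower in *fer* control, *FER* included (median -0.39), against 11.9% and 7.52% of all genes, and 2 were lower without WT arabidopside library 1, 2 or 3. *THE1*, a wall-sensing kinase of the same family, had 13.1, 11.3, 9.78 and 8.2 CPM in *fer* control and 20.6, 19.1, 22.6 and 22.2 CPM in WT arabidopside, against 23.57, 22.1, 17.1 and 14.9 CPM in WT control (-0.98, adjusted p = 0.00517 from edgeR). *RALF1*, a peptide ligand of FER, had 31.2, 25.4, 29.6 and 36.1 CPM in *fer* control and 17.3, 13.8, 12.6 and 12 CPM in WT arabidopside, against 15.5, 17.2, 21.7 and 22.1 CPM in WT control (1.14, adjusted p = 0.00192 from edgeR).

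Lists of shoot and root genes served as markers of the organs in whole seedlings. Of 16 photosynthesis genes, which mark green tissue, 10 were lower in *fer* control, against 7.52% of all genes (median -0.68), and 6 without WT arabidopside library 2. Their summed level ranged from 6942 to 13300 CPM in *fer* control and from 16150 to 17770 CPM in WT arabidopside, against 16240 to 20030 CPM in WT control. Libraries 3 and 4 of *fer* control held the lowest sums, and without them 8 genes were lower and 1 higher. *RCA*, rubisco activase, had 304, 219, 152 and 191 CPM in *fer* control and 458, 489.6, 535 and 424 CPM in WT arabidopside, against 521, 578, 554 and 475 CPM in WT control (-1.13, adjusted p = 0.00245 from edgeR). *RBCS1A*, a rubisco small subunit, differed by -0.95 (adjusted p = 0.00762). Of 12 root markers, 8 were tested and 1 was higher in *fer* control, against 11.9% of all genes. The sums were 244.8 to 302.9 CPM in *fer* control and 182.5 to 226.9 CPM in WT arabidopside, against 232 to 288.7 CPM in WT control. The sums of *fer* control thus overlapped those of WT control, and WT arabidopside lay below both. Of 6 root hair markers, 4 were tested and none was called. *PLT1*, *PLT2*, *IRT1* and *HKT1*, which define root tissues, did not pass 2.77 CPM in any library of the 3 groups. The part of tissue makeup in the other results was not tested.

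Of 15 dehydration and cold genes 12 were tested, 4 were lower and none higher in *fer* control, against 7.52% and 11.9% of all genes (median -0.28). *COR47*, a dehydrin, had 399, 308, 239 and 247 CPM in *fer* control and 599, 650.0, 599 and 601 CPM in WT arabidopside, against 648, 732, 756 and 868 CPM in WT control (-1.03, adjusted p = 0.00161 from edgeR). The remaining lists are given against 11.9% of all genes higher and 7.52% lower. Abscisic acid genes were higher for 4 of the 9 tested of 10 (2 without any 1 of *fer* control libraries 3 and 4 and WT arabidopside libraries 1, 2 and 3). Auxin genes gave 2 higher and 1 lower of 12 tested, with 2 lower without *fer* control library 1 or 2 and none without library 4 or WT arabidopside library 1, 2 or 3. α-Expansins gave 2 higher and 2 lower of 11, with 4 lower without *fer* control library 1, 1 lower without any 1 of *fer* control libraries 3 and 4 and the WT arabidopside libraries, and 1 higher without WT arabidopside library 1, 2 or 4. Heat shock genes gave 1 higher and 2 lower of 10, with 4 lower and none higher without *fer* control library 3, and none higher without *fer* control library 4 or any 1 WT arabidopside library. Of 8 flavonoid genes none was called, and 1 was higher without *fer* control library 3.

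The calls were then read in the 8 libraries that took no part in them, *fer* arabidopside against WT control. Those of *fer* arabidopside held from 4994304 to 26358335 counts. There 3605 of 17607 genes (20.5%) were higher and 2968 (16.9%) lower in *fer* arabidopside, and with upper-quartile in place of TMM scaling the counts were 3066 and 3877. In the main comparison treatment stands on the side of WT, and in this one it stands on the side of *fer*, while *fer* is the first group in both. Of the 1988 genes higher in *fer* control than in WT arabidopside, 1966 were tested there, 1613 (82%) were higher in *fer* arabidopside and 6 (0.305%) were lower. Of the 1262 lower genes, 1257 were tested, 976 (77.6%) were lower and 54 (4.3%) were higher. Of genes with no call, 13.3% were higher and 14% lower. Libraries 3 and 4 of both *fer* groups differed from libraries 1 and 2 in some of the same lists. The summed defense WRKY level was 687.5, 664.3, 1777 and 1482 CPM in *fer* control and 550.2, 895.4, 1244 and 1839 CPM in *fer* arabidopside. The part of this split in the shares was not tested, and they were not read without libraries 3 and 4. *BGLU24* and *JAZ10*, lower in *fer* control than in WT arabidopside, were higher in *fer* arabidopside than in WT control (3.75 and 4.41). *WRKY70* was higher there (2.61) and *XTH4* lower (-3.45).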

How the data were processed

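Per the labels and the methods, reads of 50 bp from QuantSeq libraries of the 3′ end were aligned with STAR to TAIR10, and the authors deposited whole-number counts per gene made with HTSeq, whose strand setting is not given in the sources used here. All 16 libraries were in the table, with 32833 gene IDs, of which 32548 matched a RefSeq (TAIR10.1) locus, used for names, promoters and overlaps only. Counts of *fer* control and WT arabidopside were filtered with filterByExpr, scaled with TMM and tested with edgeR 4.0.16 (quasi-likelihood F test, robust, R 4.3.3), and adjusted p-values (Benjamini-Hochberg) under 0.05 were called. The other comparisons were fitted the same way on their own 8 libraries. Intervals of 95% came from the standard error of each log2 fold change, and ratios of few counts have exact intervals that cover counting error only. Genes were named by rule: *FER*, the 10 largest increases and the 10 largest decreases among genes called with no overlap and at least 20 CPM in a group, the 10 largest shared changes against WT control within 2-fold, and the best known and most changed members of the lists. The promoter genes were picked after their motifs were seen. Members and lists were chosen with earlier results of these data known. On simulated data edgeR recovered 131 of 195 changed genes (88 of 4-fold and 43 of 2-fold), and 6.43% of its calls were false, against 15.7% for DESeq2. The simulation gave both groups the same spread per gene, so it did not cover the split among *fer* control libraries. Alternatives used limma 3.58.1, DESeq2 1.42.0, other scalings, filters and sets of libraries. Library depth is given with the results.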

Additional observations from a re-analysis of the deposited data

Results flagged for a closer look

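In 7 of 164 groups of 4 libraries, formed from the named genes in *fer* control and WT arabidopside, 1 library lay far from the other 3 by Dixon's test. Chance alone marks about 1 in 20 such groups. In *fer* control, *ICS1* (EDS16) stood at 123 CPM in library 4, against 53.4 to 56.4 CPM in the others, *PDF1.2* at 33.8 CPM in library 2, against 51.6 to 53.5 CPM, and *JRG21* at 71.6 CPM in library 3, against 26.4 to 33.9 CPM. In WT arabidopside, *JAZ9* (TIFY7) stood at 132 CPM in library 3, against 92.3 to 97.3 CPM in the others. In WT arabidopside library 2, *CAD5* stood at 157 CPM, against 189 to 195 CPM in the others, *COR47* at 650 CPM, against 599 to 601 CPM, and *AACT1* at 177 CPM, against 262 to 274 CPM.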

How the results depend on the processing

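The 3250 calls between *fer* control and WT arabidopside became 1714 when genes under 2-fold were left out, and from 1819 (without WT arabidopside library 3) to 4201 (without *fer* control library 1) when 1 library was left out. They ranged from 2719 to 4436 under the other scalings, filters, tools and larger sets of libraries, and 8576 to 10532 genes lay within 2-fold with 1 library left out. The same 2-fold limit left 2418 calls for *fer* control against WT control, 422 for WT arabidopside against WT control and 3346 for *fer* arabidopside against WT control. For WT arabidopside against WT control, a fit with all 16 libraries gave 357 calls and one with 12 libraries gave 406, in place of 1206. Upper-quartile scaling moved the median over all genes to -0.133 for *fer* control and -0.147 for *fer* arabidopside, each against WT control on the log2 scale. Same-numbered libraries of *fer* control and WT arabidopside were not paired by the labels, and their deviations correlated at -0.032, 0.23, 0.037 and 0.062. Same-numbered libraries of *fer* control and *fer* arabidopside were not compared in this way. A fit blocked on the replicate number made 3150 main calls, 1895 higher and 1255 lower, and *AACT1* passed (adjusted p = 0.0328 in edgeR). The sign turned only in genes near 0, of those named. *MYC2* stood at -0.073 (upper quartile), -0.017 (library size), -0.0093 (no filter), -0.0073 (limma-voom), -0.011 (replicate block), -0.00077 (all 16 libraries) and -0.021 (without *fer* control libraries 3 and 4). *JAZ6* stood at -0.027 with the upper quartile, and *AOS* at 0.18, *PYK10* at 0.16 and *AT1G15125* at -0.59 without *fer* control libraries 3 and 4. With 1 library left out, *MYC2* ranged from -0.11 to 0.12, *PYK10* from -0.086 to 0.057, *DIR5* from -0.33 to 0.17, *JRG21* from -0.58 to 0.020, *JAZ6* from -0.019 to 0.15 and *AT1G15125* from -0.21 to 0.43. Without an expression filter *AOX1D*, *CYP81F2* and *FLA13* missed the threshold (adjusted p = 0.0559, 0.0824 and 0.0818 in edgeR), as did *ORA59* with all 16 libraries (0.0555) and *AOX1D* and *CYP81F2* in limma-voom (0.153 and 0.122). The causes were not tested. Depth limited the genes with under 10 counts in WT arabidopside, whose ratios have wide counting intervals.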
